A study of Mus musculus with 67 samples.

Results

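Messenger RNA levels of 10 genes of FGF signalling were followed in mouse forelimb buds with and without Gli3, the transcription factor whose repressor form holds back Hedgehog target genes in the limb. The genes were taken by name from a table of 46983 gene IDs, and each name matched 1 ID. They are 6 ligands (Fgf4, Fgf8, Fgf9, Fgf17, Fgf10 and Fgf18) and 4 receptors (Fgfr1, Fgfr2, Fgfr3 and Fgfr4). The RNA-seq data came from 14 libraries of 4 groups. At E9.25 (21 to 23 somites), before Hedgehog signalling begins in the bud, whole forelimb buds were used, with 3 WT and 4 Gli3-/- libraries. At E10.5 (32 to 35 somites), with Hedgehog signalling underway, the anterior part of the forelimb bud was used, with 4 WT and 3 Gli3-/- libraries. All mice were Swiss Webster, and the Gli3-/- embryos carried the Xt-J allele of Gli3 on that background in every cell. Each library pooled several buds (per the sample records, 4 pairs for the younger stage and 2 for the older), so that a library is the replicate and p-values measure the spread between pools. The stage and the dissected part of the bud changed together, and their shares in any stage difference cannot be told apart.

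Limb outgrowth depends on a loop between epithelium and mesenchyme. Mesenchymal Fgf10 signals to the overlying ectoderm, mainly through an isoform of Fgfr2, and the apical ectodermal ridge at the tip of the bud answers with Fgf8 and, later and mostly posteriorly, Fgf4, Fgf9 and Fgf17. These ridge ligands act on the mesenchyme, where Fgfr1 is the main receptor, and keep it growing. Sonic hedgehog from the posterior mesenchyme feeds into the loop through Grem1, a BMP antagonist that allows the ridge to persist. Gli3 loss leads to extra digits.

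Estimated depth was 38.1 to 56.8 M reads per library, and 1 TPM, a level per transcript length scaled to a fixed library total, equalled 20.7 to 29.3 reads per kilobase. Gli3 itself, whose mutant allele still gives RNA, read 84.3, 73.4, 89.7 and 79.1 TPM in E10.5 WT and 40.9, 40.3 and 38.7 TPM in E10.5 Gli3-/-. At E9.25 it read 44.2, 15.8 and 44.6 TPM in WT and 14.3, 20.6, 20.8 and 19.1 TPM in Gli3-/-. The library labelled E9.25 WT replicate 2 thus lay within the mutant range for Gli3. In that library the 1555 tested genes spanning at least 100 kb were lower than in the other WT libraries by a median of -0.56 on the log2 scale, against -0.19 for all 14760 genes tested at E9.25, and the counts and main member values that use it are also given without it. Summed levels of 9 markers of flank and lateral plate mesoderm were 29.1 to 67.7 TPM in E9.25 WT and 86.5 to 225.4 TPM in E9.25 Gli3-/-, and 14 surface ectoderm markers summed to 196.4 to 319.7 TPM and 319.5 to 490.0 TPM in the same groups. At E9.25 the 7 endothelium markers summed to 66.2 to 111.6 TPM in WT and 127.5 to 184.4 TPM in Gli3-/-. Blood markers summed to 42110 TPM in E10.5 Gli3-/- replicate 3 and to 8397 to 28600 TPM in the other libraries. Their part in the results was not tested. The 8 neural tube markers summed to at most 0.68 TPM in any library. In whole tissue, fewer cells of a type and less RNA per cell cannot be told apart.

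In E10.5 WT buds the mean levels, in TPM, were ordered Fgfr1, Fgf8, Fgfr2, Fgf10, Fgfr3, Fgf18, Fgf9, Fgf4, Fgfr4 and Fgf17. The ranges of Fgf8 and Fgfr2 overlapped, as did those of Fgf18 and Fgf9 and those of the 3 lowest genes. In E9.25 WT buds Fgf8, Fgfr1, Fgfr2 and Fgf10 were the 4 highest, and each of the first 3 overlapped the next. Fgf4 was listed at 0 in every E9.25 library. Fgf17 and Fgf18 stayed under 1 TPM in all 7 E9.25 libraries, and Fgfr4 reached that level in 1 of them.

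**Figure D1:**
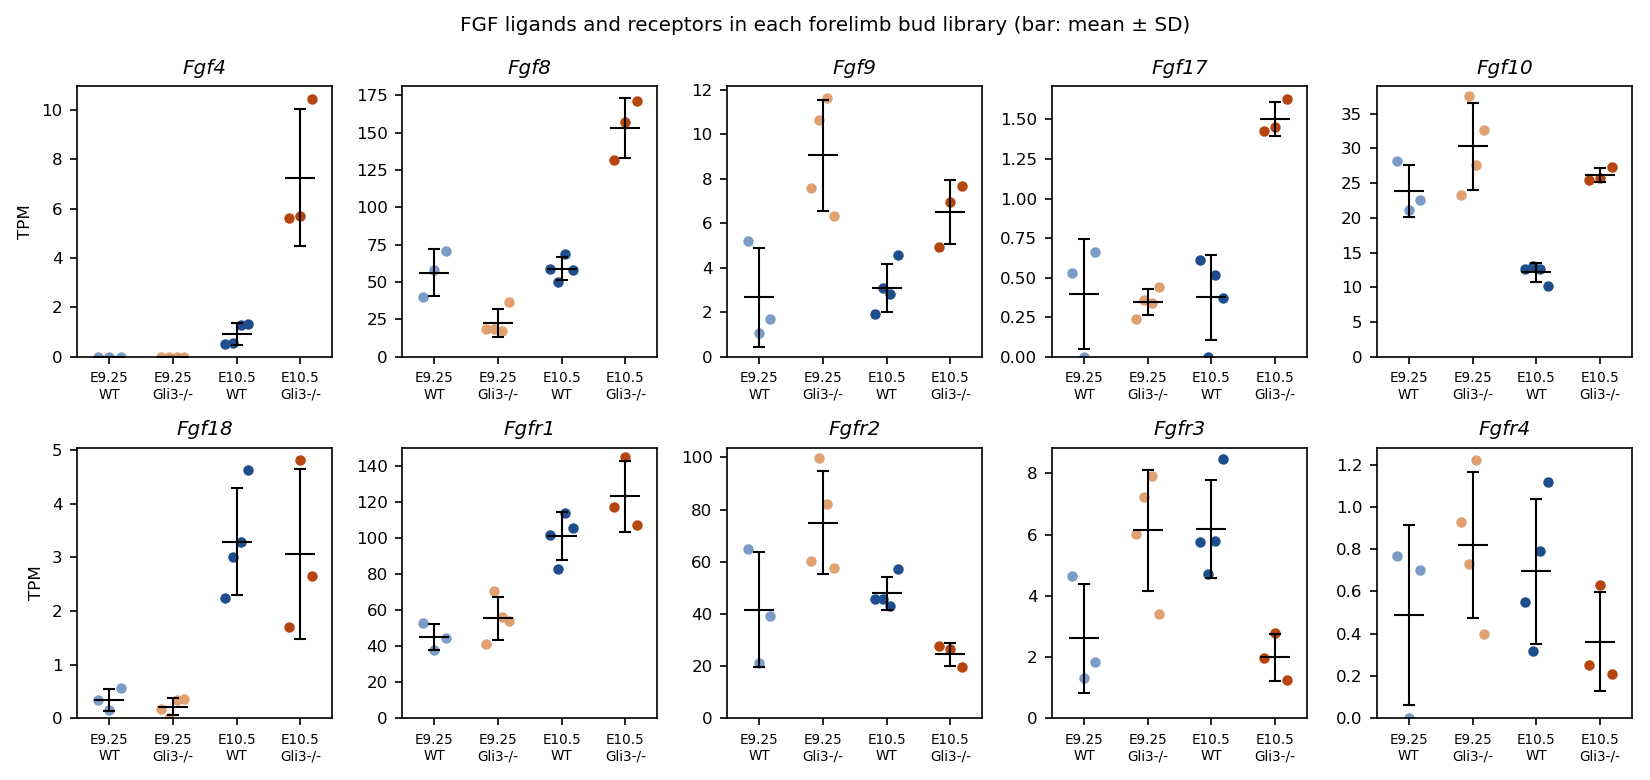
TPM of each of the 10 genes (vertical axis, from 0, scaled per panel) in the 4 groups, with 1 point per library and a bar for mean ± SD (n = 3 or 4). Fgf8 at E10.5 lay between 131.5 and 170.9 TPM in the 3 Gli3-/- libraries and between 50.4 and 69.0 TPM in the 4 WT libraries, while at E9.25 its Gli3-/- points lay under its WT points.

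The question asked of each gene was whether Gli3 loss changed its level before and after the onset of Hedgehog signalling. It was tested on log2(TPM + 1) with limma, with Benjamini-Hochberg adjustment over all genes that reached 1 TPM in at least 3 of the libraries compared, and a gene passed with an adjusted p under 0.05. At E10.5, 9 of the 10 genes were tested and 6 passed, 4 higher in Gli3-/- (Fgf4, Fgf8, Fgf10 and Fgf17) and 2 lower (Fgfr2 and Fgfr3). Of all 15654 genes tested at E10.5, 4.77% passed, 1.84% higher and 2.93% lower. Fgf17 reached the filter through its Gli3-/- libraries alone, and without it 5 of 8 passed. The median log2 fold change over all genes at E10.5 was -0.02. Over all genes 19.3% had groups that did not overlap at E10.5, and 7 of the 9 members did. At E9.25, 6 genes were tested and 0 passed with limma, where 0.136% of all 14760 genes passed, 0.108% higher and 0.0271% lower. The groups of 2 of the 6 did not overlap at E9.25, against 13.3% of all genes. At an unadjusted p under 0.05 the E9.25 count was 4 of the 6, beside 3247 of all genes, and the median log2 fold change over all genes was 0.23, so that an E9.25 value is also given relative to this median where it matters. Without E9.25 WT replicate 2 the count at E9.25 was again 0 of 6.

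**Figure D2:**
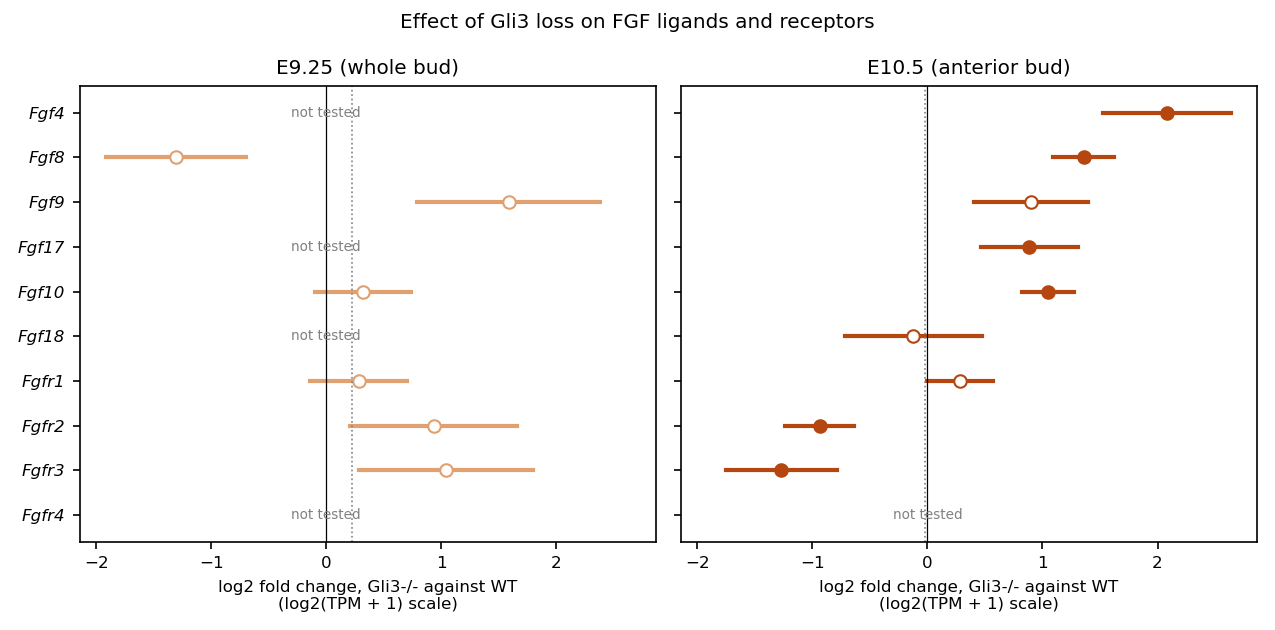
Log2 fold change of Gli3-/- against WT on the log2(TPM + 1) scale (horizontal axis) for each gene at E9.25 and E10.5, with 95% confidence intervals from limma; filled points passed an adjusted p of 0.05, and the dotted line is the median of all tested genes. Fgf8 lies at -1.31 at E9.25 and at 1.36 at E10.5, and Fgfr2 and Fgfr3 lie on opposite sides of 0 at the 2 stages.

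Promoters are shown for 2 ligands that passed as higher and 2 receptors that passed as lower at E10.5. RefSeq (GRCm38.p6) gave 8 promoters, from 250 bases before to 50 bases after a transcription start, for 7 of the genes, and none was printed for Fgf8, Fgf17 or Fgfr1. Capitals mark the GC box (GGGCGG, or CCGCCC on the other strand) and the CCAAT box (CCAAT, or ATTGG), which do not overlap each other here. Fgfr3 had 2 promoters in the table, and the first is shown. The first 2 sequences, at chr7:144861136-144861435 and chr13:118714449-118714748 on the plus strand, belong to genes that rose in the mutant. The other 2, at chr7:130266759-130267058 on the minus strand and chr5:33721474-33721773 on the plus strand, belong to genes that fell.
Fgf4: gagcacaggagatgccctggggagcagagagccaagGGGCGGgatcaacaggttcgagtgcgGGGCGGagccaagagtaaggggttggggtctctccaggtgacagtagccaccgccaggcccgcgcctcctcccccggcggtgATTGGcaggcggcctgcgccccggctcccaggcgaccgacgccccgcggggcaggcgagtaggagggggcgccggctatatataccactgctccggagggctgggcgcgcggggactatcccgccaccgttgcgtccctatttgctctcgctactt
Fgf10: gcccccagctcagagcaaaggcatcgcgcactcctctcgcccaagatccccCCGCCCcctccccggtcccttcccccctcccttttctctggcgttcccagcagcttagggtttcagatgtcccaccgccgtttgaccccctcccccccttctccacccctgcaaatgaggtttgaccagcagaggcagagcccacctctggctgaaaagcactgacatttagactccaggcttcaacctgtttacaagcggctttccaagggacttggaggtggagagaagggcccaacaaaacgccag
Fgfr2: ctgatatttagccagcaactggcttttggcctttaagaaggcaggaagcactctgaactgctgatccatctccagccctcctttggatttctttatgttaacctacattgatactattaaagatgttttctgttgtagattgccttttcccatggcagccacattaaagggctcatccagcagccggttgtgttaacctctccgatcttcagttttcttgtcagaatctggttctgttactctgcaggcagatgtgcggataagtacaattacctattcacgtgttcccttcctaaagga
Fgfr3: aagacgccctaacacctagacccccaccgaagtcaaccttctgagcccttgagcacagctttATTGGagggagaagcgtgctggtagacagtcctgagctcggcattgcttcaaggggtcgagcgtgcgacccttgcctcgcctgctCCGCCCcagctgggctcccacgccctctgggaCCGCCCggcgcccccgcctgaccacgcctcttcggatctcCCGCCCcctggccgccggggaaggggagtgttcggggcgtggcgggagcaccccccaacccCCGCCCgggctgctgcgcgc
The GC box stood in 6 of the 8 promoters, against 35.7% of the 32851 promoters in the table, and the CCAAT box in 2 of 8, against 37.4%. Both promoters of Fgfr3 are among those 6. The promoters with a GC box held 60.7 to 78.7% G and C, and those without it, of Fgf9 and Fgfr2, 42.7 and 43.7%. The median over all promoters was 52.7%. The part of this base content in the GC box count was not tested. The GLI consensus GACCACCCA, searched on both strands, was in 0 of the 8 and in 0.253% of all promoters, the ETS core CCGGAA in 1 of 8 (Fgfr4) and 14.9%, and TATAAA in 0 of 8 and 13.6%. Letters absent from these windows say nothing of a factor's binding elsewhere, and limb FGF genes are known for distant enhancers.

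Fgf8, the ridge ligand present from the start of outgrowth, was lower in Gli3-/- than in WT at E9.25 and higher at E10.5. The gene (ENSMUSG00000025219.13) lies on the minus strand at chr19:45736798-45742915 (mm10). At E9.25 it read 40.3, 57.8 and 71.1 TPM in WT and 18.3, 18.3, 17.6 and 36.6 TPM in Gli3-/-, so that the groups did not overlap and mutant replicate 4 stood above the other mutant libraries. In the same order, flank and lateral plate markers summed to 67.7, 32.0 and 29.1 TPM in WT. In Gli3-/- they summed to 150.3, 217.7, 225.4 and 86.5 TPM. Their part in the Fgf8 difference and in its contrast with E10.5 was not tested. The difference was -1.31 ± 0.27 (SE) on the log2 scale, or 2.48-fold lower mean TPM, with an adjusted p of 0.130 by limma with Benjamini-Hochberg adjustment. Relative to the median gene it was -1.53. The call depended on single libraries, since the adjusted p was 0.0238 without Gli3-/- replicate 4, 0.0370 without WT replicate 1 and 0.248 without WT replicate 2. In a single model of all 14 libraries it was 0.0115 by limma. At E10.5 Fgf8 read 59.0, 50.4, 69.0 and 57.8 TPM in WT and 131.5, 157.2 and 170.9 TPM in Gli3-/-. Every mutant library was above every WT library, and the mean rose 2.59-fold (log2 fold change 1.36 ± 0.12, limma adjusted p 0.000501). The genotype effect at E10.5 exceeded that at E9.25 by 2.67 ± 0.33 on the log2 scale (interaction, limma adjusted p 0.000732). Of the 9 genes tested for this interaction 4 passed, 2 of them positive and 2 negative, against 2.13% of all 16368 genes (0.477% positive and 1.65% negative), and the median interaction over all genes was -0.24. Without E9.25 WT replicate 2, 5 of the 9 passed, with Fgf17 added at an adjusted p of 0.0474 by limma. Fgf17 entered this test through its E10.5 Gli3-/- libraries alone. Fgf4 and Fgf18 entered it through their E10.5 libraries alone. Since Fgf4 was listed at 0 in every E9.25 library, its interaction repeats its E10.5 difference and is no separate result among the 4. Of the genes that reached 1 TPM at both stages, Fgf8, Fgfr2 and Fgfr3 passed, and Fgf9, Fgf10 and Fgfr1 did not. With E9.25 WT replicate 2 left out the interaction was 2.63 for Fgf8 (limma adjusted p 0.00237) and 2.08 for Fgf4 (0.00522 by limma), and the E9.25 values of Fgf10 and Fgfr1 were 0.24 and 0.17.

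Fgf4, a ridge ligand expressed later than Fgf8 and normally in the posterior ridge, showed the largest log2 difference of the 9 genes tested at E10.5. It lies on the plus strand at chr7:144861386-144865243 (ENSMUSG00000050917.4). It read 0.50, 0.56, 1.30 and 1.34 TPM in E10.5 WT and 5.63, 5.69 and 10.4 TPM in E10.5 Gli3-/-. The lowest mutant library was above the highest WT library, and the log2 fold change was 2.08 ± 0.25 (limma adjusted p 0.00193) on the log2(TPM + 1) scale, where low levels are understated. The ratio of mean TPM was 7.84. The promoter printed for Fgf4 held 2 GC boxes and 1 CCAAT box. Since Fgf4 was listed at 0 in all 7 E9.25 libraries of both genotypes, its interaction had the same size as its E10.5 difference (limma adjusted p 0.00207).

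Fgf9, a ligand of the ridge and elsewhere of other epithelia, read 5.19, 1.08 and 1.72 TPM in E9.25 WT and 7.60, 10.7, 11.6 and 6.34 TPM in E9.25 Gli3-/-. The groups did not overlap, and WT replicate 1 stood nearest the mutant libraries. That library also had the highest flank and lateral plate marker sum in WT, 67.7 TPM against 32.0 and 29.1 TPM. In Gli3-/- these sums were 150.3, 217.7, 225.4 and 86.5 TPM in replicate order. Their part in the Fgf9 difference was not tested. The log2 fold change was 1.59 ± 0.36 with an adjusted p of 0.146 by limma, and 1.36 relative to the median gene. The adjusted p was 0.0151 without WT replicate 1 and 0.291 without WT replicate 2. In the single model it was 0.0191 by limma. At E10.5 Fgf9 read 1.90, 3.07, 2.84 and 4.55 TPM in WT and 4.92, 6.95 and 7.68 TPM in Gli3-/-, again without overlap, with a log2 fold change of 0.90 ± 0.22 that just missed the threshold (limma adjusted p 0.0525). It passed in 1 of the 7 fits that left out 1 library, without WT replicate 4 (limma adjusted p 0.0313). The highest limma adjusted p of these fits was 0.1905. Of 10 other settings it passed in 5, with limma adjusted p of 0.0185 to 0.0412. These were quantile normalization, size factors, array weights, the gene-span trend removed and the replicate block of the titles. The highest limma adjusted p over the 10 was 0.232. Fgf8 and Fgf9 were the ridge ligands tested at both stages, and Fgf9 had positive values at both. Its interaction was -0.69 with a 95% interval of -1.68 to 0.30 (limma adjusted p 0.375). Fgf9 (ENSMUSG00000021974.14) lies at chr14:58070547-58112337 on the plus strand.

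Fgf17, an Fgf8-related ridge ligand, was close to its detection limit. It read 0.61, 0.00, 0.52 and 0.37 TPM in E10.5 WT and 1.43, 1.45 and 1.63 TPM in E10.5 Gli3-/-. All mutant libraries were above all WT libraries, with a log2 fold change of 0.88 ± 0.19 (limma adjusted p 0.0289). The call was lost with a pseudocount of 0.1 (limma adjusted p 0.119) and without WT replicate 4 (0.0713 by limma). At E9.25 it read 0.53, 0.00 and 0.66 TPM in WT and 0.24 to 0.44 TPM in Gli3-/-, and was not tested. Fgf17 (ENSMUSG00000022101.5) lies at chr14:70636205-70642268 on the minus strand.

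The 4 ridge ligands together summed to 46.0 to 73.5 TPM in E9.25 WT and 26.2 to 43.4 TPM in E9.25 Gli3-/-, and to 54.0 to 73.7 TPM in E10.5 WT and 143.4 to 190.7 TPM in E10.5 Gli3-/-. Fgf8 made up most of this sum in every library, between 87.6 and 98.2% in E9.25 WT and between 59.6 and 84.4% in E9.25 Gli3-/-. Fgf9 contributed 1.83 to 11.3% of the sum in E9.25 WT and 14.6 to 39.3% in E9.25 Gli3-/-, and Fgf4 contributed 3.32 to 5.48% in E10.5 Gli3-/-. These sums and shares are descriptions without a test.

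**Figure D3:**
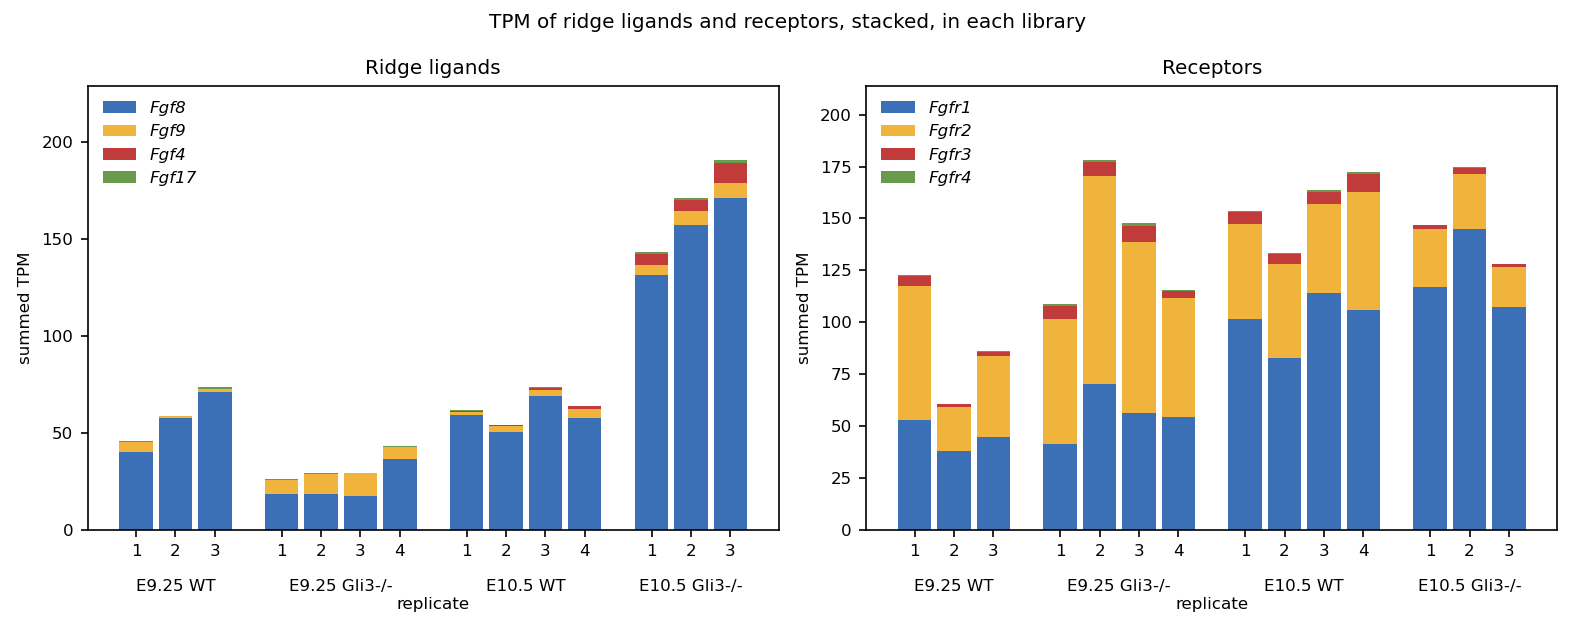
Summed TPM (vertical axis, from 0) of the 4 ridge ligands on the left and the 4 receptors on the right, stacked by gene, with 1 bar per library and replicates numbered under each group. The ligand bars of E10.5 Gli3-/- reach 143.4 to 190.7 TPM, above the ligand bars of the other groups, and Fgfr1 fills most of the receptor bars at E10.5.

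Because ridge ligands come from ectoderm, a small part of the bud, each was also set against the summed surface ectoderm markers of its own library. At E10.5 these markers summed to 251.2 to 371.7 TPM in WT and 273.9 to 343.5 TPM in Gli3-/-, and 11 other ridge markers summed to 93.0 to 133.7 TPM and 81.0 to 92.4 TPM. Relative to the ectoderm markers, Fgf8 at E10.5 was higher in Gli3-/- by 1.41 on the log2 scale, Fgf4 by 2.13, Fgf9 by 0.95 and Fgf17 by 0.94, all without overlap. Over the 35 splits of 7 libraries the exact two-sided permutation p was 0.0286 for the first 3, the smallest these groups allow, and 0.0571 for Fgf17, and all were 0.0571 after adjustment over the 7 ratios examined. At E9.25 the summed ectoderm markers, with Krt8 and Krt18 included, had a median of 279.6 TPM in WT and 438.7 TPM in Gli3-/-. The ratio of Fgf8 was lower by -1.99 (exact p 0.0571) and that of Fgf9 higher by 0.91 (exact p 0.0571), the latter with overlap. The ratio of Fgf17 was lower by -0.70 (exact p 0.0571). Without E9.25 WT replicate 2 these ratio differences were -1.75, 0.78 and -0.72. Over 3 alternative settings of the ratio they were -2.03 to -1.39 for Fgf8 and 1.30 to 1.50 for Fgf9. For Fgf17, which was under the filter at E9.25, they were -0.40 to -0.11 (permutation adjusted p 0.05 to 0.6). Without the keratins Krt8 and Krt18 the ectoderm markers summed to 146.4 to 256.4 TPM in E9.25 WT and 192.6 to 234.3 TPM in E9.25 Gli3-/-. These groups overlapped, with medians of 181.1 and 228.8 TPM. The part of the ectoderm content in these differences was not tested beyond these ratios.

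Fgf10, the mesenchymal ligand that starts and maintains outgrowth, was 2.15-fold higher in the anterior mutant bud at E10.5. Its deposited row (ENSMUSG00000021732.14, plus strand) spans chr13:118669791-118792115, while the RefSeq gene starts at 118714699. The row overlaps 1 other listed gene, Gm16263, on the other strand. Fgf10 read 12.7, 13.1, 12.6 and 10.2 TPM in E10.5 WT and 25.5, 25.7 and 27.3 TPM in E10.5 Gli3-/-. Replicates were tight and the groups far apart, with a log2 fold change of 1.05 ± 0.10 (limma adjusted p 0.000643). At E9.25 it read 28.1, 21.1 and 22.5 TPM in WT and 23.3, 37.6, 27.7 and 32.6 TPM in Gli3-/-, with overlap and a log2 fold change of 0.32, within a 95% interval of -0.10 to 0.74 (limma adjusted p 0.300). In WT, Fgf10 fell by 0.92 on the log2 scale from whole E9.25 buds to anterior E10.5 buds (limma adjusted p 0.00174), while in Gli3-/- the stage difference was -0.18 (limma adjusted p 0.433). The test of that difference, the interaction of 0.73 ± 0.22, missed the threshold (limma adjusted p 0.0959). It passed with quantile normalization (limma adjusted p 0.00693) and with median-of-ratios size factors (0.00895 by limma).

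The summed level of 10 limb mesenchyme markers was 1180 to 1462 TPM in E10.5 WT and 819.9 to 877.3 TPM in E10.5 Gli3-/-. Of the 10, 8 passed as lower, against 2.93% of all genes. Meis1, Meis2, Twist1 and Tbx5 of these markers are also in the list of upstream and partner genes described below. Tbx5 and Tbx3 did not pass, at 0.13 and -0.41 on the log2 scale. The part of the mesenchyme content in the Fgf10 difference was not tested.

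Fgf18, a ligand of mesenchyme and forming skeletal tissue, differed by stage. It read 0.34, 0.15 and 0.56 TPM in E9.25 WT and 2.24, 3.00, 3.29 and 4.63 TPM in E10.5 WT. The stages did not overlap, and the log2 difference was 1.65 ± 0.22 (limma adjusted p 0.000737), although the gene reached the filter through its E10.5 libraries alone. The E10.5 Gli3-/- libraries read 1.71, 4.81 and 2.66 TPM and spread across the WT range, with a log2 fold change of -0.12 in an interval of -0.72 to 0.47 (limma adjusted p 0.850). Fgf18 (ENSMUSG00000057967.12) lies at chr11:33117430-33147400 on the minus strand.

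Among the receptors, Fgfr1 rose with stage in both genotypes, and Fgfr2 and Fgfr3 were lower in the mutant at E10.5. Fgfr1, the main receptor of limb mesenchyme (ENSMUSG00000031565.17, plus strand, chr8:25513654-25575714), read 52.7, 38.0 and 44.5 TPM in E9.25 WT and 101.7, 82.6, 114.0 and 105.7 TPM in E10.5 WT. It rose by 1.15 ± 0.14 on the log2 scale between these stages (limma adjusted p 0.000580). In Gli3-/- it read 41.2, 70.5, 56.5 and 54.2 TPM at E9.25 and 117.1, 144.9 and 107.2 TPM at E10.5, a difference of 1.15 ± 0.17 (limma adjusted p 0.000972). Mutant and WT libraries overlapped at both stages, with log2 fold changes of 0.28 each (limma adjusted p 0.345 at E9.25 and 0.266 at E10.5). The 95% interval of the E10.5 value was -0.01 to 0.57.

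Fgfr2, whose epithelial isoform receives Fgf10 and whose mesenchymal isoform receives ridge ligands, fell in the mutant at E10.5. It read 45.8, 45.7, 43.1 and 57.0 TPM in E10.5 WT and 27.7, 26.6 and 19.6 TPM in E10.5 Gli3-/-. No mutant library reached the lowest WT library, and the mean was 1.94-fold lower (log2 fold change -0.94 ± 0.13, limma adjusted p 0.00498). In a single model of all 14 libraries, whose shared spread includes the wider E9.25 groups, the adjusted p was 0.124 by limma. At E9.25 Fgfr2 read 64.8, 21.1 and 39.1 TPM in WT and 60.4, 99.8, 82.1 and 57.6 TPM in Gli3-/-, with overlap, WT replicate 2 the lowest of all, and a log2 fold change of 0.93 ± 0.33 (limma adjusted p 0.217), or 0.53 without that library. The interaction was -1.87 ± 0.40 (limma adjusted p 0.0258), and it was -1.47 with an adjusted p of 0.0342 by limma without E9.25 WT replicate 2. It missed the threshold in 7 of the 14 fits that left out 1 library. The deposited row of Fgfr2 (ENSMUSG00000030849.17, minus strand) spans chr7:130162451-133123350, far beyond the end of the RefSeq gene at 130266808, and overlaps 44 other listed genes, 22 of them with at least 1 TPM in some library and 12 of these on the same strand. Of the 21 overlapping genes tested at E10.5, 0 passed with limma. The isoforms were not separated in these tables, and the promoter printed for Fgfr2 held neither box.

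Fgfr3, a receptor best known from cartilage (ENSMUSG00000054252.17, plus strand, chr5:33721674-33737068), fell at E10.5 as well. It read 5.76, 4.70, 5.79 and 8.46 TPM in E10.5 WT and 1.96, 2.77 and 1.24 TPM in E10.5 Gli3-/-. The groups were apart, the mean was 3.10-fold lower, and the log2 fold change was -1.27 ± 0.21 (limma adjusted p 0.0109). The call was lost when no filter on low TPM was used (limma adjusted p 0.0632). At E9.25 it read 4.65, 1.33 and 1.84 TPM in WT and 6.01, 7.22, 7.90 and 3.40 TPM in Gli3-/-, with overlap and a log2 fold change of 1.04 ± 0.34 (limma adjusted p 0.217), or 0.78 without WT replicate 2. The interaction was -2.31 ± 0.44 (limma adjusted p 0.0131) and -2.05 without E9.25 WT replicate 2 (limma adjusted p 0.0330). Fgfr4 (ENSMUSG00000005320.9, plus strand, chr13:55152640-55168759), a receptor best known from liver and muscle progenitors, was never tested. Its highest reading was 1.22 TPM, and it read 0.32 to 1.12 TPM in E10.5 WT and 0.21 to 0.63 TPM in E10.5 Gli3-/-.

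The balance between receptors is described here without a test. The ratio of Fgfr1 to Fgfr2, in TPM, was 0.81 to 1.80 in E9.25 WT, 0.68 to 0.94 in E9.25 Gli3-/-, 1.81 to 2.65 in E10.5 WT and 4.23 to 5.48 in E10.5 Gli3-/-. The 4 receptors summed to 133.3 to 172.4 TPM in E10.5 WT and 128.3 to 175.0 TPM in E10.5 Gli3-/-, so that the total overlapped between the genotypes while the Fgfr1 to Fgfr2 ratio did not.

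Between stages, 4 of the 7 genes tested in WT passed (Fgf10 lower, and Fgf18, Fgfr1 and Fgfr3 higher at E10.5), where 48.7% of all 15444 genes passed, 38.1% higher and 10.6% lower, and the median over all genes was 0.34 on the log2 scale. Of the calls over all genes 78.3% were higher at E10.5, and 47.8% with median-of-ratios size factors, under which that median was 0.02. The groups of 4 of the 7 members did not overlap, against 53.5% of all genes. Fgf18 entered through its E10.5 libraries alone, and without it 3 of 6 passed. Without E9.25 WT replicate 2 the count was again 4, with -0.998 for Fgf10, 1.54 for Fgf18, 1.03 for Fgfr1 and 0.82 for Fgfr3. The Fgfr3 call was lost with quantile normalization (limma adjusted p 0.0934), without a filter (0.0581 by limma), without E9.25 WT replicate 3 (0.0661) and without E10.5 WT replicate 4 (0.0580). The stage difference of Fgf8 in WT was 0.09 in an interval of -0.33 to 0.52 (limma adjusted p 0.691), and that of Fgfr2 was 0.33 (limma adjusted p 0.392). In Gli3-/-, 7 of the 9 genes tested passed, where 25.0% of all 15434 genes passed, 15.8% higher and 9.17% lower. The groups of these 7 did not overlap, against 35.7% of all genes. Fgf8 rose there by 2.76 ± 0.23 (limma adjusted p 1.95e-05) and Fgfr2 and Fgfr3 fell by 1.55 and 1.24 on the log2 scale (limma adjusted p 0.000374 and 0.00664). Fgf4, Fgf17 and Fgf18 entered that test through their E10.5 libraries alone, and without these 4 of 6 passed. The stage and genotype comparisons share libraries and are not independent of each other.

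Genes that respond to FGF signalling moved in 1 direction at E10.5 where they passed. Of 17 response and feedback genes 15 were tested at E10.5, and 7 passed as higher and 0 as lower with limma. Over all genes 1.84% passed as higher and 2.93% as lower. The 15 had a median of 0.37 on the log2 scale where all genes had -0.02. The genes under the filter at E10.5 were Fos and Egr1. Fos read 0.49 to 2.78 TPM in E10.5 WT and 0.29 to 0.48 TPM in E10.5 Gli3-/-. Egr1 read 0.68 to 1.20 TPM and 0.63 to 0.82 TPM in these groups, with overlap. At E9.25 all 17 were tested, 0 passed with limma, and the median was 0.07, against 0.23 over all genes. Dusp6, a phosphatase that dampens ERK downstream of FGF, read 184.8, 171.6, 173.7 and 161.1 TPM in E10.5 WT and 300.6, 297.6 and 306.7 TPM in E10.5 Gli3-/-. The groups were far apart, with a log2 fold change of 0.80 ± 0.06 (limma adjusted p 0.000338). At E9.25 Dusp6 was at -0.56 ± 0.22 (limma adjusted p 0.217), and its interaction of 1.36 ± 0.25 passed (limma adjusted p 0.0119), the 1 gene of the 17 to do so. It was 1.34 without E9.25 WT replicate 2 (limma adjusted p 0.0300). Spry4 and Spry2, feedback inhibitors of receptor signalling, had log2 fold changes of 0.87 ± 0.08 (limma adjusted p 0.000685) and 0.61 ± 0.07 (0.00182 by limma) at E10.5. In the single model of all 14 libraries Spry2 missed the threshold (limma adjusted p 0.0597). Ccnd1, a cyclin of the G1 phase, rose by 0.59 ± 0.06 at E10.5 (limma adjusted p 0.00109) and stood at 0.67 ± 0.17 at E9.25 (limma adjusted p 0.179).

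**Figure D4:**
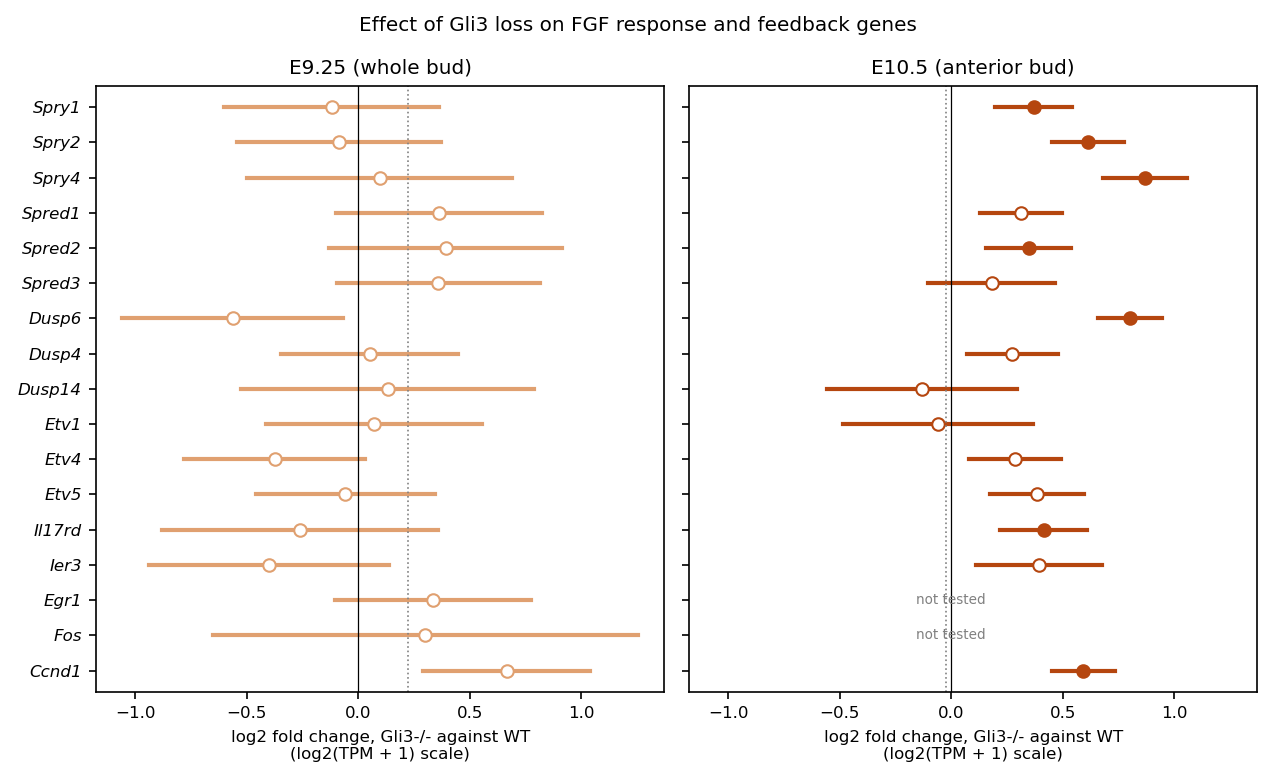
Log2 fold change of Gli3-/- against WT on the log2(TPM + 1) scale (horizontal axis) for the 17 FGF response and feedback genes at E9.25 and E10.5, with 95% confidence intervals from limma; filled points passed an adjusted p of 0.05, and the dotted line is the median of all tested genes. At E10.5 the 7 filled points all lie to the right of 0, and Dusp6 lies at -0.56 at E9.25 and 0.80 at E10.5.

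Upstream and partner genes of the loop moved in both directions. Of 16 such genes 14 were tested at E10.5, and 4 passed as higher and 3 as lower, where 1.84% and 2.93% of all genes did. Shh, the posterior Hedgehog ligand, was listed at 0 in all 4 E10.5 WT libraries and read 1.17, 7.47 and 8.67 TPM in E10.5 Gli3-/- (limma adjusted p 0.0134). Shh reached the filter through its Gli3-/- libraries alone. With no filter on low TPM the adjusted p of Shh was 0.0735 by limma. Grem1, the BMP antagonist that links Hedgehog signalling to ridge FGFs, read 14.8, 25.8, 15.1 and 16.8 TPM in E10.5 WT and 40.4, 37.3 and 47.3 TPM in E10.5 Gli3-/-. Its groups did not overlap, with a log2 fold change of 1.19 ± 0.18 (limma adjusted p 0.00626). Meis1 and Meis2, homeobox genes of proximal limb that FGF signalling restricts, fell by 1.40 and 1.25 on the log2 scale (limma adjusted p 0.000586 and 0.00119). At E9.25, 0 of the 13 tested genes of this list passed with limma, where 0.136% of all genes did.

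The list of co-receptors and receptor adaptors and the list of heparan sulfate genes had 1 call each at E10.5. Over all genes 4.77% passed at that stage, 1.84% higher and 2.93% lower. Of 14 co-receptor and adaptor genes 10 were tested at E10.5 and 1 passed, Flrt2, a transmembrane protein that binds FGF receptors, at -0.51 ± 0.10 (limma adjusted p 0.0219). Flrt2 missed the threshold in the single model (limma adjusted p 0.382), without a filter (0.0517 by limma) and in 5 of the 7 fits that left out 1 library. Of 20 heparan sulfate genes, all tested, 1 passed, Sdc2, a syndecan core protein. It read 33.9, 32.9, 33.5 and 43.3 TPM in E10.5 WT and 20.7, 16.8 and 17.4 TPM in E10.5 Gli3-/-, and fell by 0.93 on the log2 scale (limma adjusted p 0.00240). At E9.25 none of the 30 genes tested in these lists passed with limma, where 0.136% of all genes did. Of 16 other FGF ligand genes only 2 were tested at each stage for genotype and 0 passed with limma. In the WT stage comparison Fgf2 and Fgf13 passed with higher values in the older buds, where 38.1% of all genes did. Fgf2 reached the filter through its E10.5 libraries alone, and with quantile normalization neither passed (limma adjusted p 0.0631 for Fgf2 and 0.588 for Fgf13). Fgf13 also missed the threshold with size factors, without a filter and in 4 of the 7 fits that left out 1 library.

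The genes whose pattern over the 14 libraries was most like each member, by Pearson's r of log2(TPM + 1) over about 16367 tested genes, were these, given as a description since the libraries fall into 4 groups. Dusp6 was among the 2 genes most like Fgf8 (r = 0.966). Fgf10 was most like D130058E05Rik (r = 0.965) and Sall4 (r = 0.959), and Fgf4 was most like 9530018H14Rik (r = 0.976) and Vax2os (r = 0.971). Fgfr2 was most like Plce1 (r = 0.973) and Adamts9 (r = 0.966), and Fgfr3 most like Sv2a (r = 0.948) and Lox (r = 0.947). Of these, Dusp6 is the response gene described above. Fgf9 was most like Lsm14a (r = 0.943), Fgf17 most like Megf11 (r = 0.927), Fgf18 most like Tspan11 (r = 0.982) and Fgfr1 most like Clip2 (r = 0.993).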

How the data were processed

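RNA from pooled forelimb buds was extracted with TRIzol and sequenced as single reads of 100 bases, and the authors aligned the reads with HISAT2. The submitters' processing notes name mm10. The tool that made the gene tables is not given in the sources used here. For each gene the deposited tables give coverage (signal, mean depth per base), FPKM scaled to reads of the library, and TPM, scaled by the authors so that every library has an equal sum. Coverage and FPKM served here to estimate reads only. Lines of 1 gene ID were summed, log2(TPM + 1) was computed, and genes with at least 1 TPM in at least 3 of the compared libraries were tested in limma 3.58.1 (R 4.3.3; eBayes with a trend, two-sided, Benjamini-Hochberg, threshold 0.05). The interaction used all 14 libraries. Without counts, no count test was run. The procedure was tested on simulated data. By symbol 33058 genes matched RefSeq, and 99.8% of them overlapped the GRCm38.p6 position.

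The 10 genes and the pathway and marker lists were chosen with earlier results of these data known. Named list genes are the up to 4 per list and comparison with the largest change among those that passed, and up to 2 of the genes most like each member; 1 such gene is not reported here. Alternatives were other pseudocounts, filters, scalings, weights, a single model, a replicate block and each library left out; removal of the gene-span trend and of Krt8 and Krt18 was added after seeing the data.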

Additional observations from a re-analysis of the deposited data

Results flagged for a closer look

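Among the 20 groups of 4 libraries examined for a library far from the others, of which chance would single out about 1 in 20, Fgf8 in E9.25 Gli3-/- replicate 4 read 36.6 TPM where the other 3 libraries read 17.6 to 18.3 TPM. Fgf10 in E10.5 WT replicate 4 read 10.2 TPM where the others read 12.6 to 13.1 TPM. The interaction of stage and genotype passed for 4 genes, at 2.08 for Fgf4, 2.67 for Fgf8, -1.87 for Fgfr2 and -2.31 for Fgfr3 on the log2 scale. Fgf4 was listed at 0 in every E9.25 library, so that its value repeats its E10.5 difference.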

How the results depend on the processing

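At E10.5 between 4 and 7 of the genes passed over all alternatives, and Fgf4, Fgf8 and Fgf10 passed in each of them. At E9.25 the count of 0 became 2 in a single model of all 14 libraries, 1 with the replicate number of the titles as a block, and 0 to 2 when 1 library was left out. When 1 library was left out, the count was 5 to 6 at E10.5, 3 to 6 for stage in WT, 4 to 7 for stage in Gli3-/-, where Fgf4, Fgf17 and Fgf18 fell under the filter without any 1 of the E10.5 mutant libraries, and 3 to 5 for the interaction. With the replicate block the interaction count was 2. Same-numbered libraries did not deviate together by the titles (r of -0.18 to -0.15 at E9.25 and -0.16 to 0.12 at E10.5), and by the numbers of the deposited tables, which differ for E10.5 Gli3-/-, r was 0.05 to 0.29, with a mean of 0.17 against -0.06 for other pairs. The lowest was under the limit of 0.1 set for treating libraries as paired, and no source states a pairing, so that the libraries were not treated as paired. With these numbers as a block 4 genes passed at E10.5, and with those of the titles 5; Fgfr3 (limma adjusted p 0.0584 and 0.104) and Fgf17 (0.0631 and 0.139) missed the threshold.

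Values near 0 changed sign. At E9.25 without the gene-span trend Fgf10 was at -0.042 and Fgfr1 at -0.028. At E10.5 Fgf18 was at 0.016 with the block and -0.42 to 0.13 with 1 library left out. For stage in WT, Fgf8 was at -0.041 with quantile normalization, -0.26 with median-of-ratios size factors, -0.021 with array weights, -0.14 without the span trend and -0.13 to 0.28 with 1 library left out; Fgf9 was at -0.21 and -0.12 with quantile normalization and without the span trend and -0.044 to 0.74 with 1 library left out; Fgfr2 was at -0.027 with size factors, -0.54 without the span trend (limma adjusted p 0.0205) and -0.079 to 0.71 with 1 library left out; and Fgf13 was at -0.0074 without the span trend. The span trend was removed by the span of each deposited row, 2960900 bases for Fgfr2, where its RefSeq gene spans 104358 bases. The Fgfr2 value without the trend rests on that longer span. The interaction of Fgfr1 was 0.17 with quantile normalization, 0.28 with size factors, 0.019 with the block, 0.33 without the span trend and -0.14 to 0.12 with 1 library left out, and that of Fgf18 was -0.27 to 0.28 with 1 library left out. Against ridge markers in place of ectoderm markers, the ratio differences were 1.50 for Fgf9 at E9.25 and 2.44, 1.72, 1.25 and 1.24 for Fgf4, Fgf8, Fgf9 and Fgf17 at E10.5, each with an exact permutation p of 0.04 after adjustment. Each was at the smallest p of the 35 splits, 0.0286 before adjustment. The ratios of Fgf8 and Fgf17 at E9.25 passed in 0 of the 3 alternative settings. At E10.5 the ridge marker sums themselves did not overlap, at 93.0 to 133.7 TPM in WT and 81.0 to 92.4 TPM in Gli3-/-. The cause of the shifts between settings was not tested. All genes passing at E10.5 numbered 747, and between 164 and 1356 under the alternatives; at E9.25 the number was 20, and between 0 and 1185. For stage in WT, 5885 of 7520 passed as higher, and 3083 of 6445 with size factors; for stage in Gli3-/- these were 2437 of 3853 and 2399 of 4628, for the interaction 78 of 348 and 136 of 360, and at E9.25 16 of 20 and 17 of 27.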

Other observations

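Fgf4 lies in a cluster with 2 further FGF genes, which were looked at after their values were seen and did not reach the filter at E10.5. Fgf3 lies 16.9 kb before Fgf4 and Fgf15 lies 31.3 kb after it on the same strand of chromosome 7. Fgf3 read 0.15, 0.00, 0.17 and 0.00 TPM in E10.5 WT and 0.44, 0.63 and 0.69 TPM in E10.5 Gli3-/-. Fgf15 read 0.00, 0.00, 0.26 and 0.09 TPM in E10.5 WT and 1.18, 0.99 and 1.32 TPM in E10.5 Gli3-/-. In both genes every mutant library was above every WT library, at levels near the detection limit. Over all genes tested at E10.5, 19.3% had groups that did not overlap, in either direction. At E9.25, Fgf15 read 0.36 to 1.16 TPM in WT and 1.10 to 2.49 TPM in Gli3-/-. The next gene, Oraov1, 49.9 kb from Fgf4, was at -0.19 ± 0.09 at E10.5 (limma adjusted p 0.253). Ccnd1 follows 64.7 kb from Fgf4 and was at 0.59 ± 0.06 at E10.5 (limma adjusted p 0.00109). Its mutant libraries were all above its WT libraries. On the other side of Fgf3, Ano1, 109 kb from Fgf4, read 0.75 to 1.09 TPM in E10.5 WT and 1.16 to 2.92 TPM in E10.5 Gli3-/- (0.64 ± 0.20, limma adjusted p 0.118). No test was made of the cluster as a unit.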
